A study of Mus musculus with 6 samples.

Results

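Kruppel-like factors (Klf) are the 9 genes *Klf2*, *Klf3*, *Klf4*, *Klf6*, *Klf7*, *Klf9*, *Klf10*, *Klf12* and *Klf13*, taken by gene symbol from RNA-Seq counts of 24223 genes. All 9 were among the 13607 genes with enough counts to be tested, and 8 further Klf genes were present in the files. Expression was measured in 6 mouse libraries, 2 each of Naive CD4+ T cells (Naive), T helper 17 cells (Th17) and T helper 1 cells (Th1), to follow transcription as Naive differentiated into either helper type. Naive were CD4+CD44- cells isolated from pooled lymph nodes and spleens of young C57BL/6 mice and were not activated. All 4 helper libraries came from such cells after several days in culture with antibodies against CD3 and CD28 and an antibody that blocked IL-4, so stimulation, time in culture and polarization cannot be told apart in a comparison with Naive. Th17 were polarized with TGF-β, IL-6, IL-1β and IL-23 and an antibody against IFN-γ, and Th1 with IL-12 and IL-2. No gene was deleted in any group.

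Kruppel-like factors are transcription factors whose carboxyl end carries zinc fingers that bind GC-rich and CACCC sequences, while the rest of the protein differs between members and recruits different partners. *Klf2*, *Klf4*, *Klf6* and *Klf7* belong to the branch best known for activating transcription, *Klf3* and *Klf12* recruit the CtBP co-repressors, and *Klf9*, *Klf10* and *Klf13* recruit the Sin3 co-repressor. In T cells, KLF2 is known for maintaining quiescence and for driving the receptors that let Naive T cells recirculate, and its transcript is known to fall after stimulation through the T cell receptor.

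The promoter windows of *Klf2*, *Klf3* and *Klf13* are shown because *Klf2* and *Klf13* were the most abundant members per kilobase of exon and *Klf3* was the member that edgeR called. Each runs 5′ to 3′ on the strand of its gene, from 250 bases before to 50 bases after the RefSeq start (GRCm38.p6). They lie at chr8:72318812-72319111 on the plus strand (*Klf2*), chr5:64803271-64803570 on the plus strand (*Klf3*) and chr7:63938866-63939165 on the minus strand (*Klf13*). Capitals mark matches, on either strand, to the Klf/Sp site CCNCNCCC, the kind of sequence these factors themselves bind, and to the binding site of MEF2 factors.
Klf2: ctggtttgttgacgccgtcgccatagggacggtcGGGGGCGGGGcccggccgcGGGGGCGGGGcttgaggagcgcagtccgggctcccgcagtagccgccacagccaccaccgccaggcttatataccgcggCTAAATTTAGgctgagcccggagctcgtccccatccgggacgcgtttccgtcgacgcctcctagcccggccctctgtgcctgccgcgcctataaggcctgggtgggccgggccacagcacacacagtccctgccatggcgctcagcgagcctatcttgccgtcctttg
Klf3: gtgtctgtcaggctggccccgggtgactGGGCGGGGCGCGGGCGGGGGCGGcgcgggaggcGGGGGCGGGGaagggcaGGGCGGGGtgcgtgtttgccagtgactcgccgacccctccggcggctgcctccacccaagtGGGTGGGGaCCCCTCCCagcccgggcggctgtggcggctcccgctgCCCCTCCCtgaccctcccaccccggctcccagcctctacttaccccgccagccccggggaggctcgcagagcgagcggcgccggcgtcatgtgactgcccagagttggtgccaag
Klf13: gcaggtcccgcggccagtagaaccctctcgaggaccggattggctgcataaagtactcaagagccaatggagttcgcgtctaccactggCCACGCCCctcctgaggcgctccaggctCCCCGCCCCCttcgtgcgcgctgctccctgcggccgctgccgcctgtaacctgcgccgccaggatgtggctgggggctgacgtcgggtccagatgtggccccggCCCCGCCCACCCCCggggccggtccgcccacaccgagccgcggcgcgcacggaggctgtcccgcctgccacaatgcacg

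A window was found for 8 of the 9 members, *Klf10* having no entry in the table used. The Klf/Sp site was present in 7 of these 8 windows and in 49.5% of 32851 mouse promoter windows of the same length. *Klf3* held 10 overlapping or separate matches, *Klf4* 9, *Klf7* 8, *Klf13* 5, *Klf2* 4, *Klf6* 3 and *Klf12* 2, while *Klf9* held none. The MEF2 site occurred in the window of *Klf2* alone, 118 bases before the start, and in 0.557% of all windows. MEF2 factors act downstream of the kinases MEK5 and ERK5, a route known to drive *Klf2* in endothelial cells. *Klf9* held a FOXO site (TGTTTAC, in 3.65% of all windows) and an AP-1 site (TGANTCA, in 7.81%). The GC box GGGCGG, which can overlap the Klf/Sp site, was present in 6 of the 8 windows and in 35.7% of all windows, CCAAT in 3 and 37.4%, and TATAAA in 1 and 13.6%, and neither the CArG box (1.63% of all windows) nor the NF-kB site (1.63%) was found. The 3 windows printed above were rich in G and C, at 69.3% in *Klf2*, 76.7% in *Klf3* and 72.0% in *Klf13* against a median of 52.67% over all windows. This did not hold for every member. The window of *Klf12* lay below that median at 45.67%, and that of *Klf7*, at 58.33%, lay within the middle range of all windows (quartiles 45.67% and 61.67%). These matches describe letters in a window and no binding was measured.

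**Figure D1:**
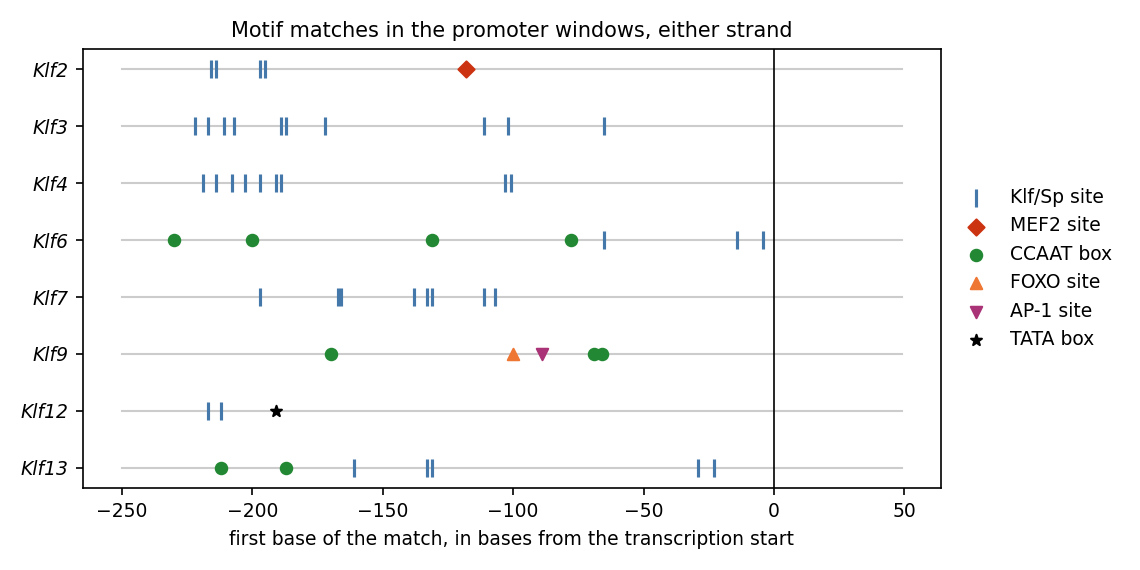
Motif matches in the promoter windows of 8 members, with the distance in bases from the transcription start on the x axis and 1 line per gene. Each mark is the first base of a match on either strand. The Klf/Sp site (blue strokes) appears in 7 of the 8 windows, and the only MEF2 site (red diamond) lies 118 bases before the start of *Klf2*.

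The libraries held between 17742158 and 69080017 counts, and replicate 1 was between 3.38 and 3.77 times as deep as replicate 2 in every group. Levels are given as CPM, the count scaled to a fixed total per library, with TMM factors that set the bulk of genes equal between libraries. All 7 T cell markers, such as *Cd3e* and *Cd4*, were above 10 CPM in all 6 libraries, and markers of Th17 summed to 1405 and 1871 CPM in Th17 against at most 5.94 in the other libraries, and markers of Th1 to 775 and 763 CPM in Th1 against at most 93.8. Genes of other cells were also present. The 8 myeloid markers summed to 2643 and 3210 CPM in Th17, 320 and 191 in Naive and 35.5 and 44.3 in Th1. *S100a8*, *S100a9* and *Lyz2* made up most of the Th17 sum, while *Mpo* ran the other way, at 159 CPM or more in Naive and 68.1 and 58.6 in Th17. The 6 mast cell and basophil markers summed to 212 and 430 CPM in Th17 and to between 22.4 and 70.8 elsewhere, 6 B cell markers to at most 17.4 in any library, and 6 CD8 T and NK cell markers to between 7.52 and 46.1. The 8 erythroid markers, *Klf1* among them, summed to 696 and 124 CPM in Naive, to 12.7 and 14.1 in Th17 and to 55.8 and 92.4 in Th1, and *Hbb-b1* and *Hba-a1* were at 0. The part of these cells in the levels below was not tested, and in bulk libraries fewer cells of a type and less RNA per cell cannot be told apart.

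Per kilobase of exon, *Klf2* was the most abundant member in every group, followed by *Klf13* and *Klf6*. *Klf2* reached 310 ± 108 CPM per kilobase in Naive, 79.3 ± 35.7 in Th17 and 280 ± 244 in Th1 (SD, n = 2 each). *Klf13* stood at 45.8 ± 18.0, 39.0 ± 11.7 and 105 ± 32.6 CPM per kilobase in the same order, and *Klf6* at 23.3 ± 6.12, 28.5 ± 5.47 and 53.5 ± 0.704. The ranges of *Klf13* and *Klf6* over 2 libraries came as close as 33.1 against 27.6 CPM per kilobase in Naive, and in Th17 they overlapped. In Th1 the libraries of *Klf2* and *Klf13* overlapped as well, because 1 of the *Klf2* values was low.

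Below these, *Klf3* came next in Naive and Th1, at 13.9 ± 3.41 and 5.71 ± 4.27 CPM per kilobase, and came after *Klf10* in Th17, at 1.64 ± 0.724 against 3.35 ± 0.0645. *Klf3* and *Klf10* overlapped in Th1 and were apart in the other groups. The rank of *Klf3* depends on its length, since the union of its exons is 11243 bases and its longest transcript 5221. On the longest transcript its Naive level was 29.9 CPM per kilobase, above that of *Klf6* at 24.2. *Klf4*, *Klf7* and *Klf9* lay between 0.385 and 2.23 CPM per kilobase in the group means. *Klf9* overlapped with both *Klf4* and *Klf7* in Naive. In Th17 *Klf3* overlapped with *Klf7* and *Klf7* with *Klf9*. In Th1 *Klf4*, *Klf7* and *Klf9* were apart. *Klf12* was last in every group, with 4 to 23 counts per library.

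The make-up of the family differed between Naive and the helper cells. *Klf2* supplied 76.2% and 78.0% of the summed level per kilobase of the 9 members in the 2 Naive libraries and 56.7% and 43.9% in Th17, compared with 42.1% and 69.5% in Th1. *Klf13* supplied 10.8% and 11.8% in Naive and 25.6% and 24.9% in Th17, compared with 32.2% and 19.7% in Th1. All 4 helper libraries thus had a smaller *Klf2* share and a larger *Klf13* share than both Naive libraries. The share of *Klf3* was 3.73% and 3.28% in Naive and between 0.915% and 1.34% in the helper libraries. That of *Klf6* was 6.18% and 5.56% in Naive and between 8.14% and 26.3% in the helper libraries. With 2 Naive and 4 helper libraries these shares are given as values with no test.

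**Figure D2:**
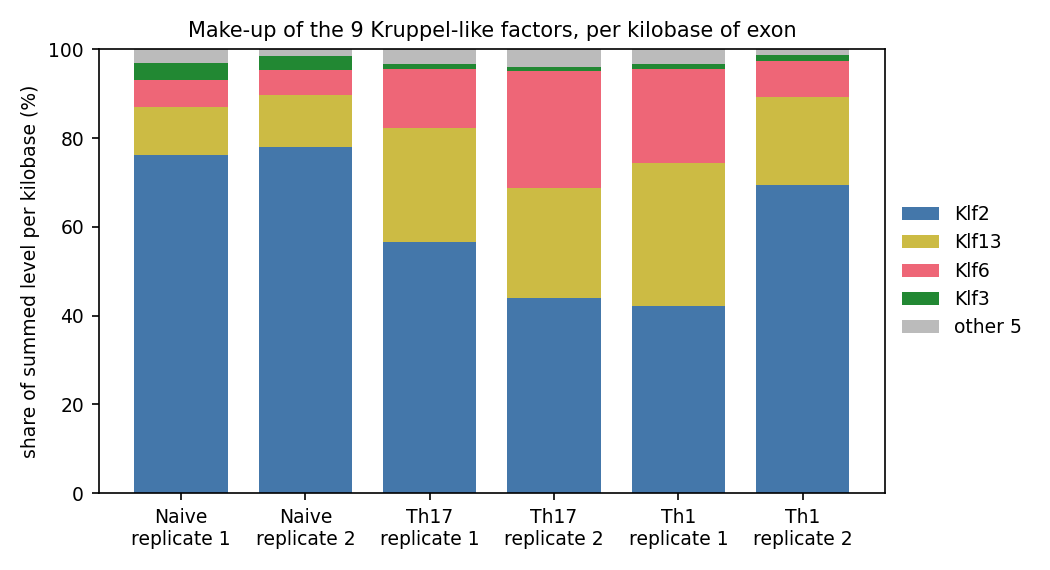
Share of the summed level per kilobase of the 9 members, in percent on the y axis, in each of the 6 libraries on the x axis. *Klf2* (blue) takes 76.2% and 78.0% in Naive and between 42.1% and 69.5% in the helper libraries, and *Klf13* (yellow) takes 10.8% and 11.8% in Naive and between 19.7% and 32.2% in the helper libraries.

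Among the members known as activators, *Klf2* was lower in Th17 than in Naive and had no common level in Th1. *Klf2* (chr8:72319033-72321656, plus strand, GRCm38, a protein-coding gene) measured 432 and 715 CPM in Naive and 193 and 99.9 in Th17, while Th1 had 199 and 837. Th17 lay below both Naive libraries, while 1 Th1 library was at the Th17 level and the other above Naive. The 2 Th1 libraries differed 4.21-fold, and of 8840 tested genes with a mean of at least 10 CPM only 1.05% differed as much between them, where the median gene differed 1.23-fold. Against Naive the log2 fold change of *Klf2* in Th17 was -1.97 ± 0.60 (SE, adjusted p = 0.053 by edgeR's quasi-likelihood test with Benjamini-Hochberg adjustment), a 3.91-fold lower level that was not called, a call needing an adjusted p under 0.01 together with a log2 fold change beyond 1 in either direction. DESeq2 gave -1.96 with an adjusted p of 0.0086 and called it. In Th1 the log2 fold change against Naive was -0.15 ± 0.58 (adjusted p = 0.90), and it was -1.53 without Th1 replicate 2 and 0.58 without Th1 replicate 1. Th1 against Th17 gave 1.82 ± 0.60 (edgeR adjusted p = 0.065, and 0.014 by DESeq2), which was 0.44 without Th1 replicate 2.

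*Klf4*, a factor that restrains cell division and is known from pluripotent stem cells, was scarce throughout. It measured 5.36 and 4.16 CPM in Naive and 1.33 and 1.02 in Th17, compared with 1.08 and 2.09 in Th1, from 18 to 365 counts. Both helper groups lay below Naive without overlap. The log2 fold change was -2.00 ± 0.53 in Th17 (edgeR adjusted p = 0.032, and 0.0047 by DESeq2, which called it) and -1.63 ± 0.52 in Th1 (edgeR adjusted p = 0.063).

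*Klf6*, a widely expressed member also studied as a tumour suppressor, had its highest and most even levels in Th1. It measured 83.2 and 121 CPM in Naive and 108 and 142 in Th17, while Th1 had 237 and 233. The Naive and Th17 libraries overlapped, and both Th1 libraries lay above all of them. The log2 fold change of Th1 against Naive was 1.20 ± 0.29 (edgeR adjusted p = 0.019, and 0.0015 by DESeq2, which called it), and that of Th1 against Th17 was 0.91 ± 0.29 (edgeR adjusted p = 0.056). Leaving out any 1 library kept the difference from Naive at 0.96 or more. In Th17 against Naive the log2 fold change was 0.29 ± 0.29 (edgeR adjusted p = 0.50).

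*Klf7*, the member closest to *Klf6* in the family, was also highest in Th1, at a far lower level per kilobase. It measured 6.38 and 10.7 CPM in Naive and 9.99 and 4.58 in Th17, compared with 20.3 and 16.0 in Th1, where both libraries lay above the other 4. The log2 fold changes of Th1 were 1.10 ± 0.45 against Naive (edgeR adjusted p = 0.13) and 1.30 ± 0.45 against Th17 (edgeR adjusted p = 0.073), and neither was called by edgeR or DESeq2. Without any 1 library the difference from Naive stayed between 0.77 and 1.51. Exons of *Klf7* overlap those of the antisense genes *Gm13748* and *Gm26649*, and since the strand setting of the counting was given in more than one way, their reads could not be told apart.

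*Klf3* was the member that edgeR called. The gene (chr5:64803388-64832901, plus strand, GRCm38) encodes a repressor that works through CtBP. *Klf3* measured 129 and 183 CPM in Naive and 24.2 and 12.7 in Th17, against 30.3 and 98.2 in Th1, from 224 to 8776 counts. All 4 helper libraries lay below both Naive libraries, and both Th1 libraries lay above Th17. In Th17 it fell by 3.07 on the log2 scale against Naive (SE 0.54, edgeR adjusted p = 0.0054), 8.40-fold lower, and DESeq2 gave an adjusted p of 5.3e-07. In Th1 the log2 fold change against Naive was -1.28 ± 0.51 (edgeR adjusted p = 0.12), and it was -2.36 without Th1 replicate 2 and -0.63 without Th1 replicate 1. Th1 exceeded Th17 by a log2 fold change of 1.79 ± 0.52 (edgeR adjusted p = 0.043, and 0.0072 by DESeq2, which called it), and without any 1 library this lay between 0.71 and 2.40 (edgeR adjusted p = 0.0040 to 0.31). The fall in Th17 kept its sign without any single library, between -3.62 and -2.69, but lost its call without Naive replicate 2, Th17 replicate 1 or Th17 replicate 2, with edgeR adjusted p of 0.013, 0.015 and 0.050. Exons of *Klf3* overlap those of the antisense gene *Gm20033*, with the same limit on strand.

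*Klf12*, the other member that recruits CtBP, was near the limit of detection. It measured 0.191 and 0.446 CPM in Naive and 0.352 and 0.339 in Th17, compared with 0.263 and 0.253 in Th1, where 3 counts correspond to between 0.0440 and 0.190 CPM depending on the library. Its log2 fold changes lay between -0.42 and 0.23 with SE of 0.77 to 0.80, and no difference was detectable at this depth.

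Of the members that recruit Sin3, *Klf13* was the one with high levels. KLF13 is known in T cells for activating the chemokine gene *Ccl5* late after stimulation. *Ccl5* measured 28.6 and 17.3 CPM in Naive and 5.35 and 13.1 in Th17, against 13.6 and 8.15 in Th1. Its log2 fold change in Th1 against Naive was -1.07 ± 0.48 (edgeR adjusted p = 0.16). These values were added after they were seen, and a link to *Klf13* was not tested. *Klf13* (chr7:63886351-63938915, minus strand, GRCm38) measured 249 and 440 CPM in Naive and 356 and 231 in Th17, against 620 and 967 in Th1, from 4087 to 40066 counts. Naive and Th17 overlapped, and both Th1 libraries lay above the other 4. The log2 fold change of Th1 was 1.20 ± 0.38 against Naive (edgeR adjusted p = 0.060, and 0.018 by DESeq2) and 1.43 ± 0.39 against Th17 (edgeR adjusted p = 0.033, and 0.0039 by DESeq2, which called it). Leaving out any 1 library kept the first between 0.85 and 1.67 and the second between 1.08 and 1.78. In Th17 against Naive the log2 fold change was -0.23 ± 0.38 (edgeR adjusted p = 0.70).

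*Klf9*, a target of glucocorticoid and thyroid hormone receptors, measured 14.6 and 4.06 CPM in Naive and 4.04 and 3.34 in Th17, compared with 6.70 and 8.28 in Th1. Its high Naive value came from replicate 1 alone, which was 3.61 times replicate 2. Such a gap was reached by 1.37% of the 8840 genes with a mean of at least 10 CPM. *Klf9* itself lay below that mean, with 82 counts in Naive replicate 2, so this share comes from more abundant genes. Erythroid markers were also high in Naive replicate 1, at 696 CPM against 124 in replicate 2, and their part in the *Klf9* value was not tested. The log2 fold change of Th17 against Naive was -1.35 ± 0.55 (edgeR adjusted p = 0.12) and was -0.13 without Naive replicate 1.

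*Klf10*, first found as a gene induced early by TGF-β, was the most even member. It measured 16.1 and 14.7 CPM in Naive and 14.2 and 13.8 in Th17, where TGF-β was in the medium, while Th1 had 18.6 and 17.8. The groups did not overlap, yet the log2 fold changes were -0.13 ± 0.30, 0.24 ± 0.30 and 0.38 ± 0.30 for Th17 against Naive, Th1 against Naive and Th1 against Th17, with edgeR adjusted p of 0.78, 0.64 and 0.39. Without TMM scaling the Th1 libraries overlapped with both other groups, and the Th1 difference from Naive was -0.0016.

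**Figure D3:**
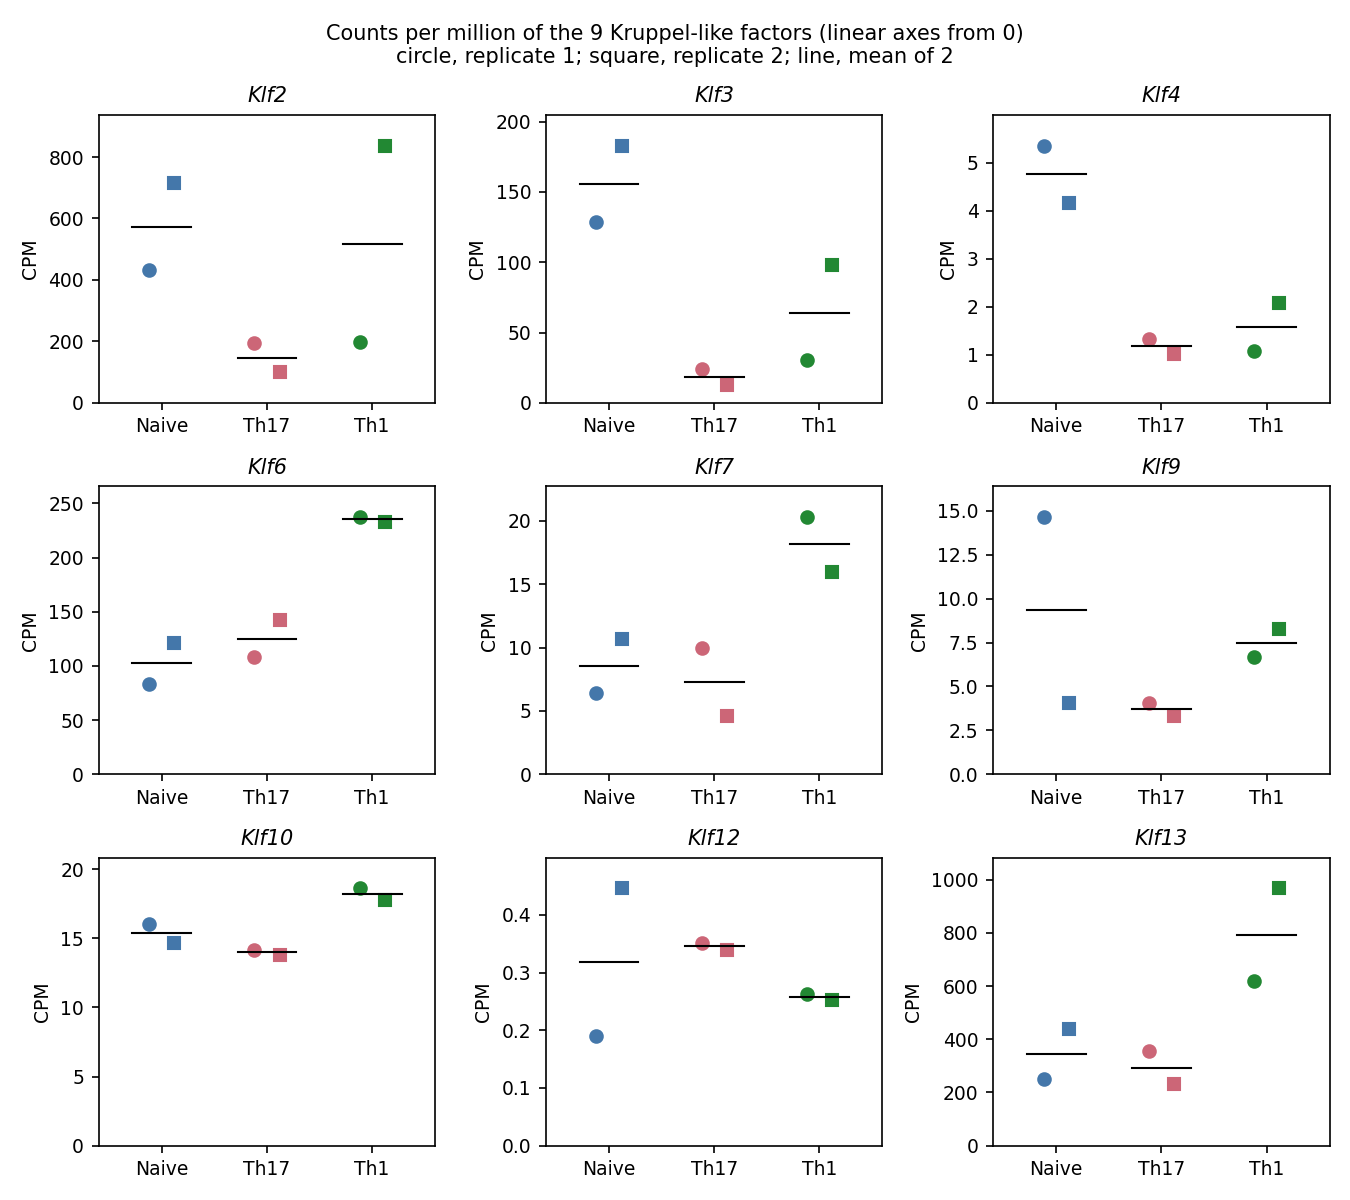
CPM of each of the 9 members on the y axis (linear, from 0, a separate scale per gene) in Naive (blue), Th17 (red) and Th1 (green), with circles for replicate 1, squares for replicate 2 and a black line for the mean of 2. *Klf3* lies at 24.2 and 12.7 CPM in Th17 against 129 and 183 in Naive, *Klf6* and *Klf13* are highest in Th1, and the 2 Th1 values of *Klf2* are 199 and 837.

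Over the 9 members, edgeR called 0 higher and 1 lower in Th17 than in Naive, where 4.01% of all genes tested were called higher and 1.43% lower. In Th1 against Naive it called 0 higher and 0 lower (4.64% and 2.81% of all genes), with 5 of 9 members at an unadjusted p under 0.05, as were 4074 of all 13607 genes. In Th1 against Th17 it also called 0 higher and 0 lower (2.7% and 2.83% of all genes), again with 5 of 9 members at an unadjusted p under 0.05 beside 4594 genes. DESeq2 called more members in each comparison. By DESeq2, 0 members were higher and 3 lower in Th17 than in Naive (7.69% and 4.92% of all genes), namely *Klf2*, *Klf3* and *Klf4*. In Th1 against Naive it called *Klf6* higher and 0 members lower (8.16% and 5.93%), and in Th1 against Th17 it called *Klf3* and *Klf13* higher and 0 lower (6.8% and 6.41%).

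Directions are given as counts of members whose libraries did not overlap, beside the shares of all genes. In Th17 against Naive 5 members had both Th17 libraries below both Naive libraries and 0 above (*Klf2*, *Klf3*, *Klf4*, *Klf9* and *Klf10*, with *Klf9* at 4.04 against 4.06 CPM), where 33.1% of all genes were lower and 32.4% higher in this way. In Th1 against Naive 4 members were higher without overlap (*Klf6*, *Klf7*, *Klf10* and *Klf13*) and 2 lower (*Klf3* and *Klf4*), against 27.6% and 28.4% of all genes. Without TMM factors *Klf10* overlapped there, which left 3 higher. By the sign of the log2 fold change 4 members were positive and 5 negative in Th1 against Naive, so no common direction was seen. In Th1 against Th17, 7 members were higher without overlap and 1, *Klf12*, was lower, against 31.5% and 35.1% of all genes. Without TMM factors *Klf2* and *Klf10* overlapped in this last comparison, which left 5 higher. The median log2 fold changes of the members were -0.23, -0.15 and 1.01 in the 3 comparisons, beside -0.02, -0.02 and -0.03 over all genes tested. Without any 1 library the 3 medians lay between -0.89 and -0.12, between -0.16 and 0.31 and between 0.71 and 1.16. The comparisons share libraries, so these counts are not independent of each other.

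**Figure D4:**
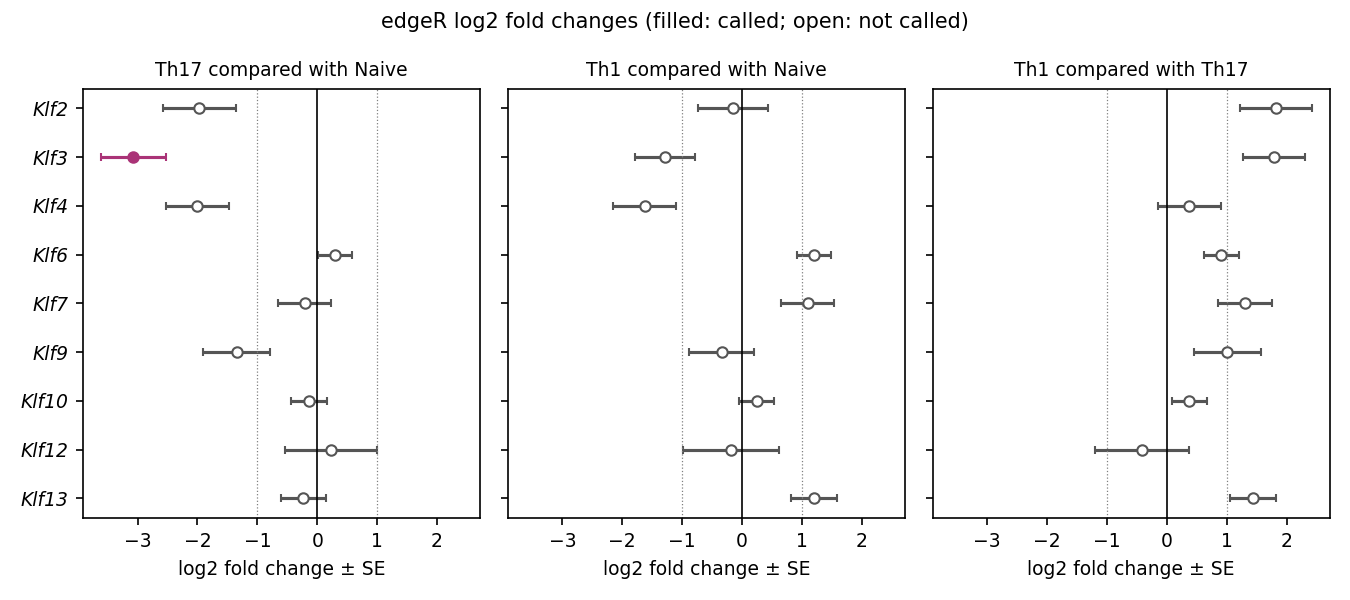
Log2 fold change of each member on the x axis in the 3 comparisons, with bars of 1 SE and dotted lines at -1 and 1. Filled points were called by edgeR and open points were not, and the only filled point is *Klf3* in Th17 against Naive, at -3.07.

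Ratios of 2 members within a library do not depend on how libraries were scaled. The ratio of *Klf3* to *Klf2* counts was 0.298 and 0.256 in Naive and 0.125 and 0.127 in Th17, compared with 0.152 and 0.117 in Th1. The 4 helper libraries had lower ratios than both Naive libraries, and the Th1 libraries, which differed 4.21-fold in *Klf2* and 3.24-fold in *Klf3*, were close to each other and to Th17 in the ratio. The ratio of *Klf13* to *Klf2* counts was 0.576 and 0.616 in Naive and 1.84 and 2.31 in Th17, while Th1 had 3.12 and 1.16. It was higher in all 4 helper libraries than in both Naive libraries. The ratio of *Klf6* to *Klf2* was 0.193 and 0.170 in Naive and lay between 0.278 and 1.42 in the helper libraries. These ratios were chosen after the values were seen and have no test.

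**Figure D5:**
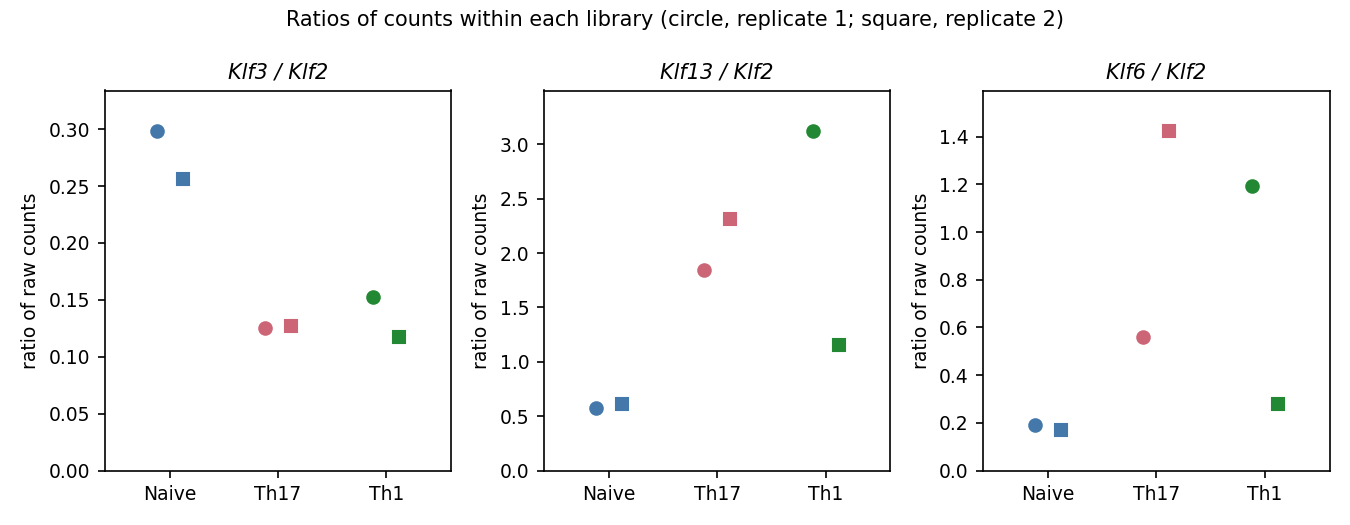
Ratio of raw counts of *Klf3*, *Klf13* and *Klf6* to those of *Klf2* within each library, on linear y axes from 0, by group on the x axis, with circles for replicate 1 and squares for replicate 2. *Klf3* to *Klf2* is 0.298 and 0.256 in Naive and between 0.117 and 0.152 in the helper libraries, and *Klf13* to *Klf2* is 0.576 and 0.616 in Naive and between 1.16 and 3.12 in the helper libraries.

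The genes most like *Klf2* over the 6 libraries were *Prr7*, *Sbk1* and *Rtn4rl1*, at distances of 0.522, 0.747 and 0.756 between centred log2 CPM profiles among 8840 genes. *Prr7* measured 20.7 and 39.6 CPM in Naive and 10.5 and 7.58 in Th17, compared with 11.6 and 42.5 in Th1, so that it too differed between the Th1 libraries. The genes most like *Klf3* were *Nr4a1*, *Rreb1* and *Rtn4rl1*, at 0.865, 1.11 and 1.17. *Nr4a1*, an immediate early gene of T cell receptor stimulation, measured 76.3 and 116 CPM in Naive and 20.8 and 7.47 in Th17, while Th1 had 11.2 and 58.5. Among the 36 pairs of members, *Klf7* and *Klf13* were closest at 0.789, *Klf2* and *Klf3* came sixth at 1.30, and *Klf3* and *Klf6* were farthest apart at 3.93.

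Of the 8 other Klf genes 5 were tested. *Klf1*, the erythroid member, measured 97.5 and 16.2 CPM in Naive and 1.02 and 0.735 in Th17, compared with 0.232 and 0.190 in Th1. It fell in both helper groups, with log2 fold changes against Naive of -5.97 ± 0.79 in Th17 and -8.00 ± 0.91 in Th1 (edgeR adjusted p = 0.0013 and 4.7e-04). Without any 1 library these lay between -6.74 and -4.16 in Th17 and between -8.77 and -6.19 in Th1, and the Naive library with more *Klf1* was the one with the higher erythroid marker sum, of which *Klf1* is a part. *Klf16*, which recruits Sin3, measured 57.0 and 57.8 CPM in Naive and 23.7 and 17.2 in Th17, while Th1 had 35.4 and 52.3. Its log2 fold change in Th17 against Naive was -1.48 ± 0.31 (edgeR adjusted p = 0.012, and 2.0e-04 by DESeq2, which called it), and that of Th1 against Th17 was 1.09 ± 0.30 (edgeR adjusted p = 0.038, and 0.0085 by DESeq2, which called it). *Klf5*, *Klf8* and *Klf11* were not called by either tool, with levels of at most 1.35, 3.60 and 8.66 CPM. The medians of the 5 were -0.84, -0.39 and 0.39, and the second lay between -0.39 and 0.28 without any 1 library. *Klf14* and *Klf17* had 0 counts in every library and *Klf15* had 1 count in all. The 9 members held 85.0% of the CPM assigned to Klf genes in Naive replicate 1, where *Klf1* was high, and between 94.8% and 97.1% in the other libraries.

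The Sp factors, the nearest relatives of the Klf factors, bind the same GC-rich sites. Of 9 listed 5 were tested, and edgeR called 1, *Sp6*, higher in Th1 than in Th17. DESeq2 called *Sp6* and *Sp2* there (log2 fold change of *Sp2* 1.16, DESeq2 adjusted p = 0.0055). Over all genes edgeR called 2.7% and DESeq2 6.8% higher in this comparison. *Sp6* measured 9.14 and 15.7 CPM in Naive and 3.79 and 1.87 in Th17, compared with 15.1 and 18.3 in Th1, with a log2 fold change of 2.53 ± 0.46 (edgeR adjusted p = 0.0063). In the other 2 comparisons edgeR called 0 Sp factors, with 2 and 0 at an unadjusted p under 0.05. DESeq2 called *Sp2* and *Sp6* lower in Th17 than in Naive (4.92% of all genes) and 0 in Th1 against Naive. *Sp3* was even, between 150 and 196 CPM in all 6 libraries. The median log2 fold changes of the 5 Sp factors were -0.57, -0.07 and 0.48 in Th17 against Naive, Th1 against Naive and Th1 against Th17. Those of the 8 co-regulators taken next were -0.55, -0.14 and 0.05, beside -0.02, -0.02 and -0.03 over all genes. Without any 1 library the second Sp median lay between -0.26 and 0.23 and the third co-regulator median between -0.04 and 0.13. Of the 8 co-regulators that Klf factors recruit (CtBP, Sin3, histone deacetylases and acetyltransferases), edgeR called 0 in all 3 comparisons. At an unadjusted p under 0.05 were 2, 2 and 5 of them, beside 4532, 4074 and 4594 of all 13607 genes. DESeq2 called *Crebbp* lower in Th17 than in Naive (4.92% of all genes). It called *Ctbp2* lower in Th1 than in Naive (5.93%) and than in Th17 (6.41%), and *Ep300* and *Crebbp* higher in Th1 than in Th17 (6.8%). All of these were named after their values were seen. *Ctbp1*, which KLF3 recruits, measured 431 and 377 CPM in Naive and 254 and 210 in Th17, against 338 and 408 in Th1, and its log2 fold change in Th17 against Naive was -0.80 ± 0.28 (edgeR adjusted p = 0.075). *Hdac1*, a deacetylase of the Sin3 complex, measured between 204 and 256 CPM in Naive and Th1 and 327 and 351 in Th17.

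Of 9 genes known to act upstream of *Klf2* and *Klf4*, edgeR called 0 in Th17 against Naive (4 at an unadjusted p under 0.05, and 1, *Foxo3*, by DESeq2) and 1, *Map2k5*, higher in Th1 against each of the other groups. DESeq2 called 4 higher in Th1 than in Th17, namely *Map2k5*, *Mapk7*, *Foxo1* and *Foxo3* (DESeq2 adjusted p = 0.0039 for *Mapk7* and 1.8e-04 for *Foxo3*). Against Naive it called *Map2k5* higher and *Mef2c* lower in Th1 (DESeq2 adjusted p = 0.0018 for *Mef2c*). Over all genes edgeR called 4.64% higher in Th1 than in Naive and 2.7% higher than in Th17. The DESeq2 shares were 8.16% higher and 5.93% lower in Th1 than in Naive and 6.8% higher than in Th17. In Th17 against Naive DESeq2 called 4.92% lower. *Map2k5*, which encodes the kinase MEK5 of the route that ends in MEF2, measured 27.8 and 29.7 CPM in Naive and 26.1 and 26.5 in Th17, compared with 81.0 and 113 in Th1. Its log2 fold changes were 1.75 ± 0.28 against Naive (edgeR adjusted p = 0.0026) and 1.88 ± 0.28 against Th17 (edgeR adjusted p = 0.0024). *Foxo1*, whose protein drives *Klf2* in T cells, measured 175 and 371 CPM in Naive and 154 and 112 in Th17, against 296 and 401 in Th1, with a log2 fold change of 1.38 ± 0.38 in Th1 against Th17 (edgeR adjusted p = 0.037, and 0.0068 by DESeq2). The 9 genes did not all move together. By sign 1 was positive and 8 negative in Th17 against Naive, and 7 were positive and 2 negative in each Th1 comparison. *Wwp1* ran against the majority in all 3, at 0.35, -0.04 and -0.39. The list was not split by whether a gene raises or lowers KLF2 or KLF4. Its signs and medians therefore do not measure a drive on these factors, and a link to *Klf2* was not tested. The medians of the 9 genes were -0.94, 0.31 and 1.25 in the 3 comparisons, beside -0.02, -0.02 and -0.03 over all genes. Without any 1 library they lay between -1.01 and -0.39, between 0.02 and 0.73 and between 0.88 and 1.62.

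Of 8 homing and recirculation genes, the class that KLF2 is known to control, edgeR called 2 lower in Th17 than in Naive. In Th1 it called 1 higher and 1 lower than in Naive, and 1 higher than in Th17, where DESeq2 called 3 higher. Over all genes edgeR called 1.43%, 4.64%, 2.81% and 2.7% in the same order. DESeq2 called 6.8% of all genes higher in Th1 than in Th17. *Cxcr3*, a chemokine receptor of Th1 cells, measured 48.3 and 47.5 CPM in Naive and 13.6 and 9.44 in Th17, compared with 122 and 167 in Th1, and its log2 fold changes were -2.05 ± 0.30, 1.59 ± 0.29 and 3.64 ± 0.31 (edgeR adjusted p = 0.0019, 0.0051 and 1.9e-04). *Ccr9*, a gut homing receptor, had 693 and 295 counts in Naive and 24 and 0 in Th17, against 11 and 4 in Th1, and fell by 5.68 and 5.95 on the log2 scale in the helper groups (SE 0.82 and 0.86, edgeR adjusted p = 0.0019 and 0.0016). *S1pr1*, the exit receptor that KLF2 drives, measured 271 and 351 CPM in Naive and 421 and 390 in Th17, compared with 221 and 562 in Th1. Both Th17 libraries of *S1pr1* lay above both Naive libraries, with a log2 fold change of 0.38 ± 0.40 (edgeR adjusted p = 0.53). Of the 8 genes, 3 had positive and 5 negative log2 fold changes in Th17 against Naive, *S1pr4* among the latter at -0.57. A link of these changes to *Klf2* was not tested. The medians of the 8 genes were -0.42, 0.45 and 0.41, beside -0.02, -0.02 and -0.03 over all genes. Without any 1 library they lay between -0.52 and -0.25, between 0.22 and 0.76 and between 0.17 and 0.94. *S1pr1* and *S1pr4* were named here after their values were seen.

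Of 9 further genes reported as targets of Klf factors, edgeR called 2 higher in Th17 than in Naive, 2 higher and 2 lower in Th1 than in Naive, and 1 lower in Th1 than in Th17. Over all genes edgeR called 4.01% higher and 1.43% lower, 4.64% and 2.81%, and 2.7% and 2.83% in the same order. DESeq2 called 3 higher in Th17 than in Naive, *Cdkn1b* being the third (7.69% of all genes). It called 2 lower (4.92%), *Smad7* and *Foxp3* (log2 fold changes -1.47 and -1.77, DESeq2 adjusted p = 0.0043 and 0.0014). In Th1 against Th17 it called *Tgfb1* higher (6.8% of all genes, DESeq2 adjusted p = 0.0014). The cell cycle inhibitor *Cdkn1a*, a target of KLF4 and KLF6, measured 1.88 and 0.644 CPM in Naive and 128 and 65.0 in Th17, compared with 128 and 102 in Th1. It rose by 6.14 ± 0.54 and 6.40 ± 0.55 on the log2 scale (edgeR adjusted p = 1.5e-04 and 1.2e-04). *Cdkn2b*, another such inhibitor, had 17 and 0 counts in Naive and 75 to 384 in the helper libraries, with log2 fold changes of 5.04 ± 0.78 and 4.92 ± 0.78 (edgeR adjusted p = 0.0027 and 0.0026). *Eng*, a TGF-β co-receptor, measured 35.3 and 13.1 CPM in Naive and 21.9 and 15.3 in Th17, against 3.05 and 2.21 in Th1, and its log2 fold changes in Th1 were -3.19 ± 0.50 against Naive and -2.80 ± 0.50 against Th17 (edgeR adjusted p = 0.0027 and 0.0058). *Foxp3*, the factor of regulatory T cells, measured 39.2 and 69.9 CPM in Naive and 19.2 and 12.7 in Th17, compared with 6.95 and 13.2 in Th1, and fell by 2.45 ± 0.43 in Th1 against Naive (edgeR adjusted p = 0.0044). The medians of the 9 targets were -0.38, -0.73 and -0.12 in the 3 comparisons, beside -0.02, -0.02 and -0.03 over all genes. Without any 1 library they lay between -0.67 and -0.23, between -0.73 and -0.46 and between -0.26 and -0.05.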

How the data were processed

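RNA-Seq was measured in 6 libraries, 2 independent biological replicates each of Naive, Th17 and Th1. Per the labels, polyadenylated RNA was reverse transcribed by Smart-seq2. According to the methods, reads were mapped to mm10 by HISAT2 2.2.1, duplicate reads were dropped and HTSeq 0.13.5 counted the rest over genes, while the authors' code shows no step that drops duplicates. The gene annotation was not given in the sources used here, and the strand setting differed between the methods and the code. The authors deposited whole-number raw counts, one set of values per library, and these counts were used unchanged. No interval was added for single values, so depth enters through the fitted spread.

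Counts were tested with edgeR 4.0.16 (R 4.3.3, limma 3.58.1) after filterByExpr and TMM (factors 0.862 to 1.09), with cell type as the only term over all 6 libraries. The quasi-likelihood test was used with Benjamini-Hochberg adjustment over 13607 genes, and a call needed an adjusted p under 0.01 together with a log2 fold change beyond 1 in either direction. SE is the absolute log2 fold change divided by the square root of F. DESeq2 1.42.0 was the other tool. Both were checked on simulated data. Profiles are log2 CPM with a prior count of 2, for genes with a mean of at least 10 CPM. Exon lengths are from GENCODE vM21 (GRCm38) and promoters from RefSeq (GRCm38.p6), matched by symbol.

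Members and lists were chosen with earlier results of these data known, so no list was tested as a set. The members, the other Klf genes, at most 5 called genes of each list by fold change (the most abundant if fewer than 2 were called) and the 3 nearest profiles of *Klf2* and of each called member are named. Alternatives were other size factors, other filters, thinning, replicate blocks, other thresholds and leaving out each library. Same-numbered replicates did not pair, with correlations of their deviations of -0.23, 0.17 and 0.077. A gene of the homing list is not reported here.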

Additional observations from a re-analysis of the deposited data

Results flagged for a closer look

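With 2 libraries per group no single library could be tested as standing apart. A set of 10 genes is given here for the difference between their changes from Naive in the helper groups, which is the log2 fold change of Th1 against Th17. By edgeR's quasi-likelihood test the difference was called for *Sp6* (2.53), *Map2k5* (1.88), *Cxcr3* (3.64) and *Eng* (-2.80). Over all genes tested, 27.6% lay above Naive in Th1 without overlap and 33.1% below Naive in Th17. The share that did both was not counted. For the other 6 of the 10 genes both Th1 libraries lay above both Naive libraries and both Th17 libraries below. The difference itself was not called by edgeR for these genes. Among Klf genes these were *Klf10* at 0.38 and *Klf11* at 1.22, measuring 7.28 and 5.94 CPM in Naive and 4.56 and 2.77 in Th17, while Th1 had 8.57 and 8.66 (edgeR adjusted p = 0.39 for *Klf10* and 0.068 for *Klf11*). The others were *Mapk7* at 1.28, *Mef2a* at 1.00, *S1pr4* at 1.56 and *Tgfb1* at 1.25, with edgeR adjusted p of 0.028, 0.031, 0.017 and 0.024. DESeq2 called 3 of these differences, with adjusted p of 0.0039 for *Mapk7*, 3.8e-04 for *S1pr4* and 0.0014 for *Tgfb1*. Without TMM scaling the Th1 and Naive libraries of *Klf10*, *Klf11* and *Mapk7* overlapped. *Mapk7* encodes ERK5 and *Mef2a* a MEF2 factor, the steps after *Map2k5*. The MEF2 genes did not move together. *Mef2c* was lower in Th1, at -2.18 ± 0.56 against Naive and -1.24 ± 0.55 against Th17. *Mef2d* was at 0.27 ± 0.41 and 1.25 ± 0.42. A change in this route as a whole, or a link of it to *Klf2*, was not tested. That *Klf10*, *Klf11*, *Mapk7*, *Mef2a*, *S1pr4* and *Tgfb1* were higher in both Th1 than in both Th17 libraries follows from the rule that picked them. It is no further result. Without TMM scaling the Th1 and Th17 libraries of *Klf10* overlapped as well.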

How the results depend on the processing

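The count of members called depended on the settings. In Th17 against Naive, 1 member was called lower by edgeR, 3 by DESeq2 or with no filter on low counts, 2 at an adjusted p under 0.05, with only the 4 libraries compared or with the replicate block in DESeq2, and 0 with library size alone, where *Klf3* was at -3.09 (edgeR adjusted p = 0.010031). Leaving out 1 library gave 0 to 2. In Th1 against Naive, 0 were called higher and 0 lower, against 1 higher by DESeq2, with the replicate block in DESeq2 or at an adjusted p under 0.05, and 2 higher and 1 lower with no filter. In Th1 against Th17, 0 were called higher, against 2 by DESeq2, with the replicate block in DESeq2 or at an adjusted p under 0.05, 3 with no filter, and 0 to 2 (2 without Th1 replicate 1) when a library was left out. The replicate block in edgeR changed no member's call and called *Klf16* lower in Th17 (adjusted p = 0.0088). Since Th17 numbers ran against Naive (correlation -0.23), a crossed pairing was added after seeing the data and called 2 lower in Th17 against Naive, 1 higher and 1 lower in Th1 against Naive and 2 higher in Th1 against Th17. The members called under different settings were not always the same, and the cause was not tested.

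Some signs reversed. With library size alone *Klf10* in Th1 against Naive was -0.0016. Leaving out 1 library took *Klf7* from -0.89 to 0.23, *Klf12* from -0.36 to 0.85, *Klf13* from -0.58 to 0.24 and *Klf8* from -0.050 to 0.31 in Th17 against Naive. In Th1 against Naive it took *Klf2* from -1.53 to 0.58, *Klf9* from -0.97 to 0.88, *Klf12* from -0.77 to 0.44 and *Klf5* from -2.71 to 0.28, and in Th1 against Th17 it took *Klf4* from -0.13 to 0.81. *Klf1* lost its call in Th17 without Th17 replicate 1 or 2 (edgeR adjusted p up to 0.014). Over all genes, the counts of calls ranged from 250 to 1223 higher and 28 to 951 lower in Th17 against Naive (545 and 194), 370 to 1287 and 150 to 976 in Th1 against Naive (631 and 383), and 73 to 1188 and 114 to 1076 in Th1 against Th17 (367 and 385). Library size alone moved the median of all genes to -0.26 and -0.24 in the Th1 comparisons and the share of calls that were higher in Th1 against Th17 from 48.8% to 36.6%, and no filter moved the split of Th17 calls from 73.7% to 55.8% higher. *Klf12* was not tested at a minimum of 10 counts or after thinning. With a single library left in a group, its spread is assumed equal to that of the others.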
